A study of Mus musculus with 18 samples.

Results

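The results concern 9 chemokine ligand genes, Ccl1, Ccl3, Ccl4, Ccl5, Ccl20, Xcl1, Cxcl2, Cxcl10 and Cxcl16, in mouse regulatory T (Treg) cells, the CD4+Foxp3+ T cells that restrain immune responses. They were taken as a fixed list of symbols, and all 9 were found among the 55487 gene IDs of each deposited table. RNA sequencing was done on Treg cells sorted fresh from peripheral blood and 5 organs (spleen, liver, lung, bone marrow and lymph node), each giving 3 of the 18 libraries. All 6 groups came from wild-type mice given no treatment, so they differ by organ only as far as the labels say. The sorting gates, the mice behind each library and their age and sex are not stated in the sources used here, and nothing there says that the 3 libraries of a group came from separate animals. The p-values below therefore measure the spread between libraries, which may be technical. The question set by the design is how Treg cells of the blood differ from those in tissues.

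Chemokines are small proteins that bind G protein-coupled receptors and draw receptor-bearing cells along a gradient. Ccl3 and Ccl5 act through Ccr1, among others, while Ccl1 acts through Ccr8, Ccl20 through Ccr6, Xcl1 through Xcr1, Cxcl2 through Cxcr2, Cxcl10 through Cxcr3 and Cxcl16 through Cxcr6. Treg cells are best known as users of these receptors, but activated T cells also transcribe ligands, and many of the same ligand genes are strongly induced in macrophages, neutrophils and natural killer cells. Several of these genes respond quickly to NF-kappaB or interferon signals, and some of the transcripts carry AU-rich decay elements and are short-lived.

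The sequences before the start sites are shown for the ligands whose levels the results turn on. RefSeq (GRCm38.p6) promoter entries were matched for 6 of the 9 genes, namely Ccl1, Ccl3, Ccl20, Xcl1, Cxcl2 and Cxcl10. The 250 bases before the start site are printed 5′ to 3′ on the strand of the gene for Cxcl2 (chr5:90903649-90903898, plus strand), which was highest in lung, for Cxcl10 (chr5:92348890-92349139, minus strand), which was highest in liver, and for Ccl3 (chr11:83649379-83649628, minus strand), which was highest in blood. All letters are in lower case because no motif was searched. The start sites are those of RefSeq and differ from the gene ends given below from GENCODE for Cxcl2, whose window runs into the gene as annotated there, and for Ccl3, whose window ends short of it.
Cxcl2 promoter: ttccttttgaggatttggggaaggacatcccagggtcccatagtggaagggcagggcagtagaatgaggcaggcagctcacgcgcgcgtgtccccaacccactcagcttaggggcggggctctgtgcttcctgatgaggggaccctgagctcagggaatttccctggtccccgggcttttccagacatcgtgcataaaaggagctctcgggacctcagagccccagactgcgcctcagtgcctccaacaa
Cxcl10 promoter: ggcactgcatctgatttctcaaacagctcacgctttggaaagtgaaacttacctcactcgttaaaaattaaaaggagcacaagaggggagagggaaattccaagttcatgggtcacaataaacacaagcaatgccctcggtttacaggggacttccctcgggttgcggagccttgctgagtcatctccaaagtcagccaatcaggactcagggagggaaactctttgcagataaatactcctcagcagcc
Ccl3 promoter: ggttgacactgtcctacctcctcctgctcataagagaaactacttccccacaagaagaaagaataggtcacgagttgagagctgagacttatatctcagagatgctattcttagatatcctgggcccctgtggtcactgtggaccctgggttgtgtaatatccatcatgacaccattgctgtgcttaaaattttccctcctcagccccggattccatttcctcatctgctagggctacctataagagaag
The share of G and C in these windows was 60% for Cxcl2, 48% for Cxcl10 and 46.8% for Ccl3, against a median of 52.4% over the 32851 promoters of the table. Nothing about the binding of a factor was measured here.

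In the annotation (GENCODE M21, GRCm38) 5 of the 9 genes lie on chromosome 11. Ccl5 (ENSMUSG00000035042, chr11:83525778-83530518, minus strand), Ccl3 (ENSMUSG00000000982, chr11:83647844-83649355, minus strand) and Ccl4 (ENSMUSG00000018930, chr11:83662584-83664683, plus strand) lie close together. Ccl3 and Ccl4 are transcribed away from each other, with 13228 bases between them. Ccl1 (ENSMUSG00000020702, chr11:82176657-82305690, minus strand) and Cxcl16 (ENSMUSG00000018920, chr11:70453983-70459984, minus strand) are on the same chromosome. Cxcl2 (ENSMUSG00000058427, chr5:90903871-90905938, plus strand) and Cxcl10 (ENSMUSG00000034855, chr5:92346638-92348889, minus strand) belong to the CXC cluster of chromosome 5. Ccl20 (ENSMUSG00000026166, chr1:83116766-83119167, plus strand) and Xcl1 (ENSMUSG00000026573, chr1:164931644-164935527, minus strand) are on chromosome 1. Gm20743, Art3 and Zmynd15 overlap Xcl1, Cxcl10 and Cxcl16 on the opposite strand and reached at most 0.84, 4.32 and 2.29 TPM in any library. Strand use in the counting is not given in the sources used here, so reads of these pairs may not be separable. The message-decay pentamer ATTTA occurred 5 times in the 409 bases of the longest annotated Ccl3 3′ untranslated region, 11 times in the 1494 bases of Cxcl2 and 9 times in the 1050 bases of Ccl20. Among genes whose untranslated region differed in length by at most 20%, 0.943%, 0.736% and 0.728%, respectively, held at least as many. Ccl1 and Ccl5 had no ATTTA, and the 3 copies in Cxcl10 were reached by 30.1% of like-length genes.

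Values are TPM (the length-corrected transcript unit), a share of the RNA of a library, so a rise of any RNA lowers all others. In bulk RNA, fewer cells of a type and less RNA per cell cannot be told apart. Foxp3 was present in every library, from 85.4 TPM in blood to 240.3 TPM in lymph node, and all 6 Treg and T cell markers averaged at least 1 TPM in every group. Their summed level was lowest in blood (802 to 819 TPM) and highest in lung (2597 to 2674 TPM). The lung sum was led by Ctla4, which averaged 1486 TPM there and 335 TPM in lymph node. Each of the other markers had a higher mean in lymph node than in lung, as Cd3e did at 691 against 432 TPM. Markers of cells that the sort should lack were also present and moved with organ. Summed neutrophil genes ran from 19.0 to 75.7 TPM in lymph node, from 173 to 743 TPM across spleen, liver and lung, from 16940 to 18127 TPM in blood and from 44923 to 45383 TPM in bone marrow. Monocyte and macrophage genes ran from 15.5 to 19.0 TPM in lymph node and from 8082 to 8326 TPM in blood. The part of such cells in the ligand levels was not tested, and their values stand beside the results below. The number of genes above 0 ran from 14314 in a liver library to 19797 in a bone marrow library, and TPM tables keep no read depth.

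**Figure D1:**
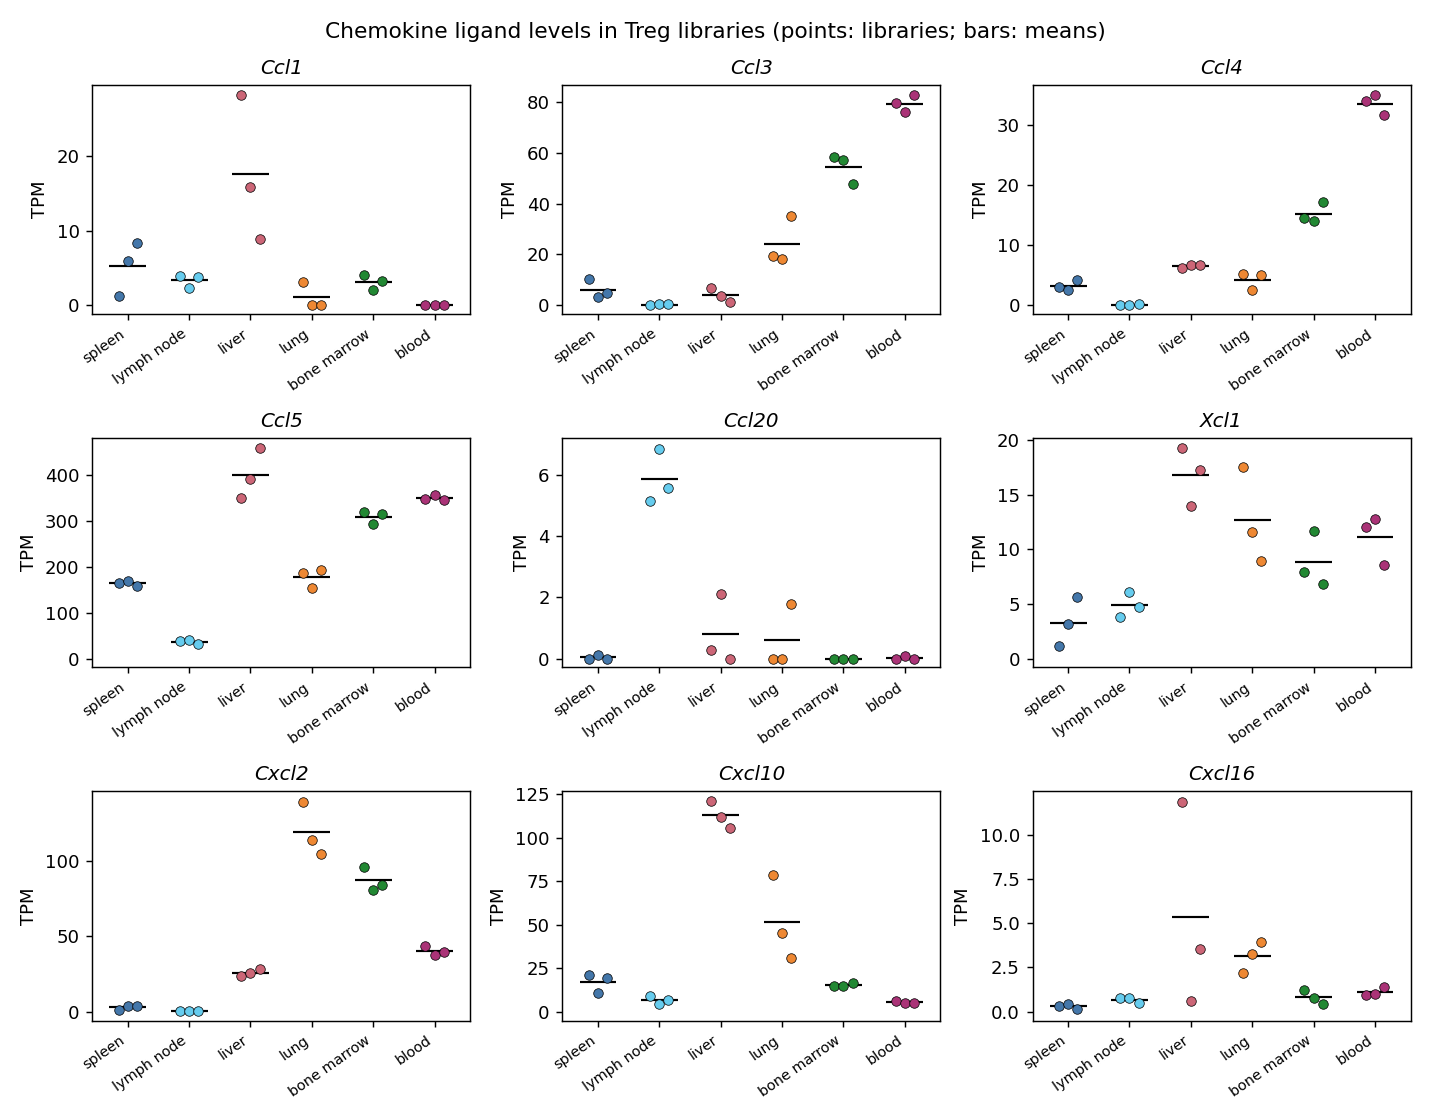
TPM of each of the 9 ligand genes (y axis, linear, own scale per panel) in the 6 groups (x axis); points are libraries and bars are group means of 3. Ccl3 and Ccl4 are highest in blood, Ccl5, Cxcl10 and Xcl1 reach their highest means in liver, Cxcl2 in lung and Ccl20 in lymph node.

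All 9 ligands passed the filter of a group mean of at least 1 TPM, and all 9 differed among the 6 groups (limma F test, adjusted p under 0.05), as did 68% of the 16694 genes tested. Ccl20 passed the filter through lymph node alone and Cxcl16 through 3 groups, so their calls follow partly from the group in which they are high. Adjusted p ran from 1.04e-12 for Ccl5 to 0.022 for Cxcl16 in limma. In every leave-one-out fit and every alternative processing all 9 remained past the threshold.

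Ccl5, which recruits T cells and macrophages and is itself a product of memory and effector T cells, was the most abundant of the 9 in every group. Its 3 libraries stood at 352, 392 and 460 TPM in liver, at 350, 358 and 347 TPM in blood and at 321, 293 and 316 TPM in bone marrow. In lung they stood at 186, 155 and 194 TPM, in spleen at 165, 170 and 158 TPM and in lymph node at 37.6, 39.4 and 32.6 TPM. The lymph node libraries lay below all others without overlap, liver overlapped blood, and lung overlapped spleen. Blood was higher than lymph node by 3.24 ± 0.10 (SE) on the log2(TPM + 1) scale (limma adjusted p = 8.59e-13), than spleen by 1.09 ± 0.10 (limma adjusted p = 2.65e-07) and than lung by 0.98 ± 0.10 (limma adjusted p = 6.7e-07). Against bone marrow the difference was 0.18 (limma adjusted p = 0.191) and against liver -0.18 (limma adjusted p = 0.166), neither of which passed. The liver comparison turns on scaling. Without liver replicate 1 it passed at -0.27 (limma adjusted p = 0.0413), after removal of abundant RNA classes at -0.26 (limma adjusted p = 0.0429), and scaled to 20 T cell genes it became 0.78 with blood higher (limma adjusted p = 7.4e-06). Liver exceeded spleen by 1.27 ± 0.10 and bone marrow lay below liver by -0.36 ± 0.10 (limma adjusted p = 1.08e-07 and 0.00971), the latter falling to -0.00754 (limma adjusted p = 0.979) under T cell scaling and missing the threshold with library weights (limma adjusted p = 0.076). Lymph node lay below spleen by -2.14 ± 0.10 (limma adjusted p = 1.22e-09), while lung and spleen differed by 0.11 (limma adjusted p = 0.404), or 0.34 with T cell scaling (limma adjusted p = 0.0179).

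Ccl3, also called macrophage inflammatory protein 1 alpha and a ligand of Ccr1, rose in blood against 4 of the 5 organs. In blood it was 79.4, 75.9 and 82.5 TPM, in bone marrow 58.4, 57.2 and 47.8 TPM and in lung 19.3, 18.2 and 35.3 TPM. In spleen it was 10.2, 3.44 and 4.75 TPM, in liver 6.95, 3.87 and 1.36 TPM and in lymph node 0, 0.61 and 0.37 TPM. The blood libraries lay above all others without overlap, and spleen overlapped liver. Ccl3 was higher in blood than in lymph node by 5.95 ± 0.40, a value that depends on the pseudocount of 1 because lymph node is near 0 (limma adjusted p = 5.58e-09). It was higher in blood than in liver by 4.15, than in spleen by 3.61 and than in lung by 1.73, each with SE 0.40 (limma adjusted p = 3.99e-07, 2.31e-06 and 0.00212). Against bone marrow the difference was 0.54 ± 0.40, which did not pass (limma adjusted p = 0.35), but it passed at 1.14 with T cell scaling (limma adjusted p = 0.0222) and at 0.54 when only these groups were fitted (limma adjusted p = 0.00141). Among organs, Ccl3 was higher in bone marrow than in spleen by 3.07 and in lung than in spleen by 1.88, and lower in lymph node than in spleen by -2.34 (limma adjusted p = 2.35e-05, 0.00127 and 0.000812). The rise of 1.19 in bone marrow over lung (limma adjusted p = 0.0235) did not pass without lung replicate 1 (1.06, limma adjusted p = 0.075), lung replicate 2 (1.03, 0.082), bone marrow replicate 1 (1.14, 0.0666) or bone marrow replicate 2 (1.15, 0.0636), nor at a pseudocount of 0.1 TPM or after removal of abundant RNA classes (limma adjusted p = 0.139 and 0.0555).

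Ccl4, macrophage inflammatory protein 1 beta, draws T cells and monocytes and is encoded beside Ccl3. It stood at 34.1, 34.98 and 31.8 TPM in blood, at 14.6, 14.01 and 17.2 TPM in bone marrow and at 6.27, 6.72 and 6.75 TPM in liver. It stood at 5.22, 2.64 and 5 TPM in lung, at 3.07, 2.50 and 4.18 TPM in spleen and at 0, 0 and 0.23 TPM in lymph node. Blood and bone marrow each lay apart from all lower groups, and lung overlapped spleen. Ccl4 was higher in blood than in every organ, by 1.09 ± 0.21 over bone marrow, 2.19 ± 0.21 over liver, 2.75 ± 0.21 over lung and 3.04 ± 0.21 over spleen (limma adjusted p = 0.00092, 5.4e-07, 3.37e-08 and 1.33e-08). Over lymph node, where Ccl4 was listed at or near 0, the difference was 5.01 ± 0.21 (limma adjusted p = 3.21e-11). Bone marrow exceeded spleen by 1.95 and lymph node lay below spleen by -1.97 (limma adjusted p = 4.15e-06 and 1.55e-05). Liver exceeded spleen by 0.85 ± 0.21 (limma adjusted p = 0.00658), a call that was not kept at a pseudocount of 0.1 TPM, with library weights or with only these groups fitted (limma adjusted p = 0.066, 0.0721 and 0.0972).

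Within a library the ratio of Ccl3 to Ccl4 TPM does not depend on how the library is scaled. It ranged from 2.17 to 2.60 in blood, from 2.77 to 4.08 in bone marrow and from 3.70 to 7.06 in lung. In spleen it ranged from 1.14 to 3.31 and in liver from 0.20 to 1.11, so Ccl4 exceeded Ccl3 in 2 of the 3 liver libraries. In blood, bone marrow, lung and spleen Ccl3 exceeded Ccl4 in every library. No ratio was taken in lymph node, where Ccl4 was listed at 0 in 2 libraries.

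Cxcl2 draws neutrophils through Cxcr2 and is an immediate response gene of macrophages and neutrophils. It reached 139, 113 and 104 TPM in lung, 96.1, 80.4 and 84.1 TPM in bone marrow and 43.3, 37.5 and 39.5 TPM in blood. In liver it was 23.4, 25.5 and 27.97 TPM, in spleen 1.32, 3.51 and 3.86 TPM and in lymph node 0.29, 0.18 and 0.21 TPM. No group overlapped its neighbour in this order. Blood exceeded spleen by 3.47 ± 0.21 and lymph node by 5.06 ± 0.21 (limma adjusted p = 2.83e-09 and 2.91e-11), and lay below lung by -1.54 ± 0.21 and bone marrow by -1.09 ± 0.21 (limma adjusted p = 2.27e-05 and 0.00092). The last call was not kept under T cell scaling (-0.50, limma adjusted p = 0.0709). Blood exceeded liver by 0.63 ± 0.21 (limma adjusted p = 0.0293), but this did not pass without liver replicate 1 (0.57, limma adjusted p = 0.078), liver replicate 2 (0.63, 0.0553), blood replicate 1 (0.57, 0.0927) or blood replicate 3 (0.64, 0.0648). It also failed at pseudocounts of 0.1 and 0.5 TPM, after removal of abundant RNA classes, with quantile normalization and with library weights (limma adjusted p from 0.0504 to 0.124). Lung exceeded spleen by 5.01, lung exceeded liver by 2.17, and liver exceeded spleen by 2.84, each with SE 0.21 (limma adjusted p = 3.48e-11, 1.32e-06 and 7.69e-08). Bone marrow and lung differed by -0.44 ± 0.21 (limma adjusted p = 0.111), which passed only when these groups alone were fitted (limma adjusted p = 0.0299).

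Cxcl10 is an interferon-inducible ligand that draws Cxcr3-bearing T cells. It was 121, 112 and 106 TPM in liver, 78.4, 45.4 and 30.6 TPM in lung and 21.4, 10.9 and 19.3 TPM in spleen. In bone marrow it was 14.5, 14.7 and 16.5 TPM, in lymph node 8.95, 4.66 and 6.46 TPM and in blood 6.32, 5.01 and 4.81 TPM. Liver lay above lung, and lung above every lower group, without overlap. Spleen overlapped bone marrow, and lymph node overlapped blood. Cxcl10 was lower in blood, with differences of -4.16 against liver, -2.94 against lung, -1.47 against spleen and -1.35 against bone marrow, each with SE 0.29 (limma adjusted p = 1.18e-08, 6.07e-07, 0.000914 and 0.00211). Scaled to T cell genes the spleen call was lost (-0.68, limma adjusted p = 0.0644). Against lymph node the difference was -0.24 (limma adjusted p = 0.588), and it turned to 0.77, with blood higher, under that scaling (limma adjusted p = 0.0367). Liver exceeded spleen by 2.70 and lung exceeded spleen by 1.48, each with SE 0.29 (limma adjusted p = 4.67e-06 and 0.000811). Lung lay below liver by -1.22 ± 0.29 (limma adjusted p = 0.0044), a call not kept with library weights (limma adjusted p = 0.169). Bone marrow and spleen differed by -0.11 (limma adjusted p = 0.864), with the sign turned under T cell scaling and without spleen replicate 1 (0.15 and 0.062).

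Xcl1 draws Xcr1-bearing dendritic cells and is made by activated T cells and natural killer cells. It was 19.3, 13.99 and 17.2 TPM in liver, 17.5, 11.6 and 8.90 TPM in lung and 12.01, 12.7 and 8.58 TPM in blood. In bone marrow it was 7.93, 11.6 and 6.83 TPM, in lymph node 3.81, 6.13 and 4.75 TPM and in spleen 1.12, 3.13 and 5.60 TPM. Liver overlapped lung, lung overlapped blood, blood overlapped bone marrow, and lymph node overlapped spleen. Blood exceeded spleen by 1.63 ± 0.35 (limma adjusted p = 0.00154). It exceeded lymph node by 1.04 ± 0.35 (limma adjusted p = 0.0277), but not past the threshold without lymph node replicate 1 (0.90, limma adjusted p = 0.102), lymph node replicate 3 (1.03, 0.0679), blood replicate 1 (0.98, 0.082) or blood replicate 2 (0.94, 0.0916), nor with quantile normalization (limma adjusted p = 0.0619). Against liver, lung and bone marrow the differences were -0.57, -0.14 and 0.32, and none passed (limma adjusted p = 0.223, 0.791 and 0.559). T cell scaling turned them to 0.34 and 0.48 against liver and lung, which did not pass, and to 0.89 against bone marrow, which did (limma adjusted p = 0.0467). Leaving out lung replicate 1 or blood replicate 3 also turned the lung difference, to 0.10 and 0.0176. Spleen was exceeded by liver (2.19), by lung (1.77) and by bone marrow (1.31), each with SE 0.35 (limma adjusted p = 0.000192, 0.000722 and 0.0113). The bone marrow call was not kept without spleen replicate 1 (0.88, limma adjusted p = 0.0589), without bone marrow replicate 2 (1.11, 0.0602), with quantile normalization (0.98, 0.0568) or with only these groups fitted (0.0523).

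Ccl1, a ligand of Ccr8, was listed at 0 TPM in all 3 blood libraries. It was 28.1, 15.9 and 8.89 TPM in liver, 1.30, 5.91 and 8.40 TPM in spleen and 3.94, 2.30 and 3.85 TPM in lymph node. In bone marrow it was 4.09, 2.00 and 3.32 TPM and in lung 3.14, 0 and 0 TPM. The liver libraries lay above all others without overlap, though 8.89 TPM in liver replicate 3 was close to the 8.40 TPM of spleen replicate 3, and each lower group overlapped the next. Because blood was listed at 0, no fold is given against it. The test called Ccl1 lower in blood than in liver, spleen, lymph node and bone marrow (limma adjusted p = 2.71e-05, 0.00333, 0.0082 and 0.0129), and not against lung (limma adjusted p = 0.365). Without bone marrow replicate 1 the bone marrow call was not kept (limma adjusted p = 0.0516). Lung lay below liver by -3.40 ± 0.57 (limma adjusted p = 0.000244). Liver exceeded lymph node by 1.98 ± 0.57 (limma adjusted p = 0.0151), which did not pass without lymph node replicate 2 (1.79, limma adjusted p = 0.0602) or liver replicate 1 (1.59, 0.0614), or at a pseudocount of 0.1 TPM (2.24, 0.118). Liver exceeded spleen by 1.67 ± 0.57 (limma adjusted p = 0.0356). That call was lost without spleen replicate 1 (1.07, limma adjusted p = 0.178), liver replicate 1 (1.28, 0.127) or liver replicate 2 (1.68, 0.0673), and in 6 alternatives with limma adjusted p from 0.0567 to 0.18.

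Ccl20 draws Ccr6-bearing cells, among them Th17 cells, and reached a group mean of 1 TPM in lymph node only. Its lymph node libraries stood at 5.15, 6.87 and 5.59 TPM. In liver it was 0.29, 2.11 and 0 TPM, in lung 0, 0 and 1.77 TPM, in spleen 0, 0.13 and 0 TPM and in blood 0, 0.07 and 0 TPM, and it was listed at 0 in all bone marrow libraries. Every lymph node library lay above every other library. Ccl20 was lower in blood than in lymph node by -2.74 ± 0.40, higher in lymph node than in spleen by 2.71 ± 0.40, and lower in liver than in lymph node by -2.10 ± 0.40 (limma adjusted p = 4.24e-05, 0.000232 and 0.000837). The other groups lay at or near 0, where no order can be read.

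Cxcl16, a membrane-anchored ligand of Cxcr6 that the protease Adam10 can shed, was low throughout. It was 11.9, 0.58 and 3.52 TPM in liver, 2.18, 3.29 and 3.92 TPM in lung and 0.97, 1.02 and 1.38 TPM in blood. In bone marrow it was 1.24, 0.78 and 0.44 TPM, in lymph node 0.78, 0.79 and 0.47 TPM and in spleen 0.31, 0.43 and 0.16 TPM. The liver libraries ranged across nearly all other groups, whereas each lung library lay above every blood, bone marrow, lymph node and spleen library. No blood comparison passed, with differences of -1.09 against liver and -0.94 against lung (limma adjusted p = 0.1 and 0.149). Without liver replicate 2, the lowest of that group, blood lay below liver by -1.85 (limma adjusted p = 0.000816), and quantile normalization called both liver (-1.65, limma adjusted p = 0.00961) and lung (-1.44, 0.0195). With only blood and lung fitted the lung difference also passed (limma adjusted p = 0.0296). Liver exceeded spleen by 1.80 ± 0.50 and lung exceeded spleen by 1.65 ± 0.50 (limma adjusted p = 0.0126 and 0.0155). The liver call did not pass when only these groups were fitted (limma adjusted p = 0.148), and the lung call stood at 1.51 (limma adjusted p = 0.0503) without lung replicate 3.

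**Figure D2:**
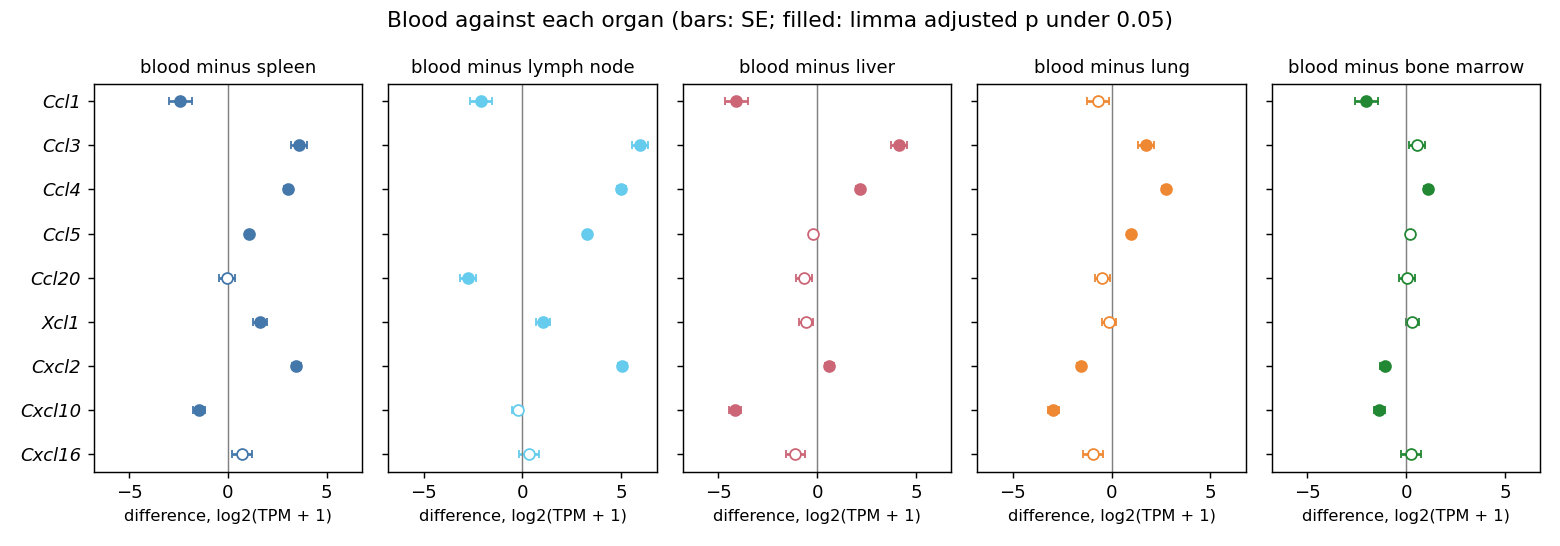
Difference of blood minus each organ for the 9 ligand genes on the log2(TPM + 1) scale (x axis), with SE bars; filled points passed at limma adjusted p under 0.05. Ccl3 and Ccl4 lie to the right and Cxcl10 to the left in all panels, except that Ccl3 against bone marrow and Cxcl10 against lymph node did not pass, the latter turning sign under T cell scaling; Ccl1 is listed at 0 in blood, so its position depends on the pseudocount.

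The 5 blood comparisons share the 3 blood libraries, and each is read against all genes tested. Against spleen, 5 of the 9 ligands were higher in blood (Ccl3, Ccl4, Ccl5, Xcl1 and Cxcl2) and 2 lower (Ccl1 and Cxcl10), where 20.1% of all genes were called higher and 15.3% lower. Against lymph node, 5 were higher (the same genes as against spleen) and 2 lower (Ccl1 and Ccl20), with 16.4% and 21% of all genes. Against liver, 3 were higher (Ccl3, Ccl4 and Cxcl2) and 2 lower (Ccl1 and Cxcl10), with 23.3% and 16.1%. Against lung, 3 were higher (Ccl3, Ccl4 and Ccl5) and 2 lower (Cxcl2 and Cxcl10), with 26.4% and 17.3%. Against bone marrow, 1 was higher (Ccl4) and 3 lower (Ccl1, Cxcl2 and Cxcl10), with 13% and 18.8%. Several of these counts lie close to the share of all genes. Among them are the 2 lower in blood than in spleen, in lymph node and in liver, and the 3 higher than in liver. Both counts against lung and the 1 higher than in bone marrow are also among them. The median difference of the 9 was 1.09 against spleen, 1.04 against lymph node, -0.57 against liver, -0.46 against lung and 0.18 against bone marrow. Over all genes the medians were 0, -0.15, 0.07, 0.12 and -0.11. Ccl1 lay below the members' median in each comparison, so its value at 0 does not set it. The median of -0.46 against lung was, however, the value of Ccl20, which averaged 0.02 TPM in blood and 0.59 TPM in lung. That value turned to 0.0325 without lung replicate 3, so no direction can be read from the lung median. Nor can one be read from the medians against liver and bone marrow. These were the values of Xcl1 and Ccl5, neither of which was called (limma adjusted p = 0.223 and 0.191). The Xcl1 value against liver turned to 0.34 under T cell scaling. Scaling to T cell genes moved the median of all genes to 0.71, 0.77, 0.88, 0.66 and 0.37 in the same order. Under that scaling 1 ligand was lower in blood than in spleen, in place of 2, and 4 were higher in blood than in bone marrow, in place of 1. The last count was 2 with library weights and 3 with only these groups fitted.

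Between the 5 organs, lymph node differed from spleen in 6 of the 9 ligands, Ccl20 higher and Ccl3, Ccl4, Ccl5, Cxcl2 and Cxcl10 lower, where 14.3% of all genes were called in either direction. Liver differed from spleen in 7, all higher, with 31.3% of all genes called, although only 4 passed when these groups alone were fitted. The ligands that were not called there were Ccl3 and Ccl20. Lung differed from spleen in 6 (5 higher, Ccl1 lower), with 40.8% of all genes, and bone marrow differed from spleen in 5, all higher, with 24.1%. Against lymph node, liver was called for all 9 (8 higher, Ccl20 lower), lung for 7 (6 higher) and bone marrow for 6 (5 higher), with 31.1%, 42.3% and 22.5% of all genes. Lung differed from liver in 5 (Ccl3 and Cxcl2 higher, Ccl1, Ccl5 and Cxcl10 lower), with 34.9% of all genes. Bone marrow differed from liver in 6 (3 in each direction), with 34.5%, and from lung in 4 (Ccl3, Ccl4 and Ccl5 higher, Cxcl10 lower), with 43.5%. For bone marrow against lung, 4 of 9 ligands is close to the share of all genes called.

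**Figure D3:**
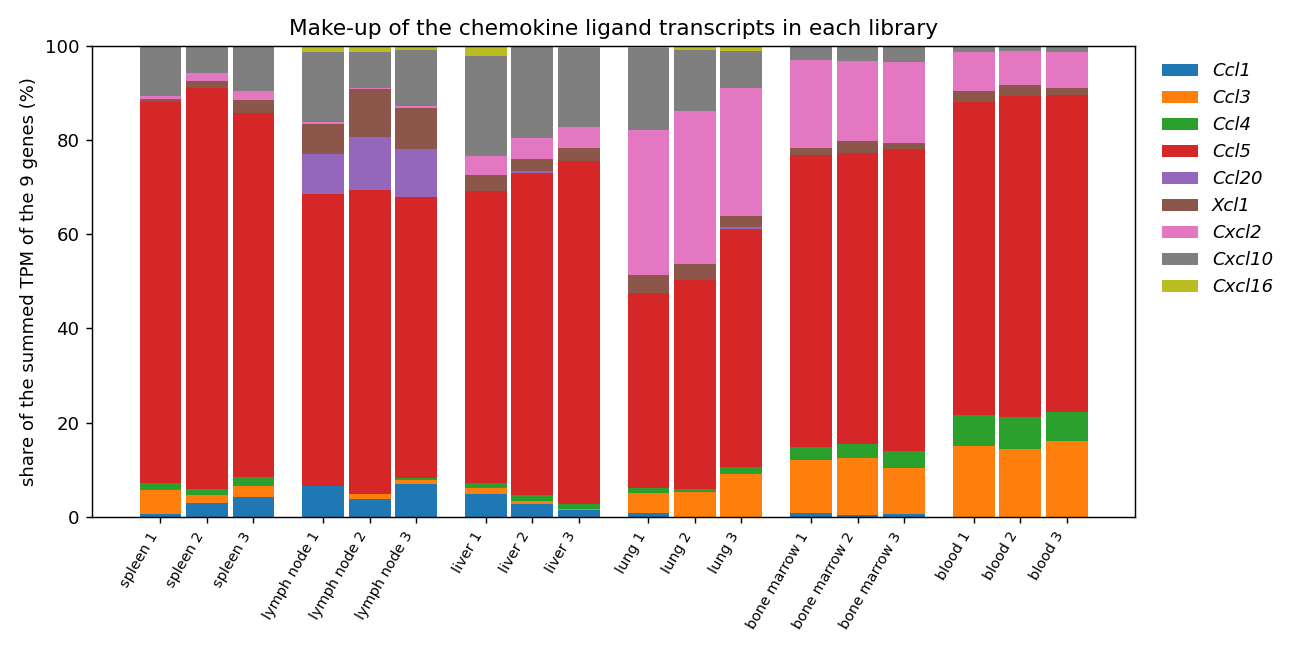
Share of each ligand in the summed TPM of the 9 genes (y axis, percent) for each of the 18 libraries (x axis). Ccl5 takes from 41.3% to 50.6% in lung and more in every other library, Cxcl2 takes its largest share in lung and Ccl20 shows as a band in lymph node.

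The make-up of the ligand transcripts also differed between organs. Shares of the sum within a library do not depend on scaling, whereas the sums themselves do. The 9 genes summed to 58.7 ± 3.6 TPM in lymph node and 203 ± 2.3 TPM in spleen (SD, n = 3). They summed to 395 ± 52 TPM in lung, 495 ± 22 TPM in bone marrow, 522 ± 5.6 TPM in blood and 591 ± 35 TPM in liver. Ccl5 made up 81.1 ± 3.8% of the sum in spleen, 67.7 ± 5.5% in liver, 62.7 ± 1.3% in bone marrow, 62.2 ± 2.5% in lymph node and 67.3 ± 0.83% in blood. In lung it made up 45.4 ± 4.7%, and Cxcl2 made up 30.1 ± 2.7%. Cxcl2 held 17.5 ± 0.88% in bone marrow, 7.68 ± 0.55% in blood and 4.33 ± 0.19% in liver. Cxcl10 held 19.2 ± 2.3% in liver and 1.03 ± 0.15% in blood. Ccl3 and Ccl4 held 15.2 ± 0.78% and 6.43 ± 0.25% in blood. Lymph node was the group where Ccl20 held 10.01 ± 1.4% and Xcl1 8.36 ± 1.9%, on a small total. These shares are a description, with no test.

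**Figure D4:**
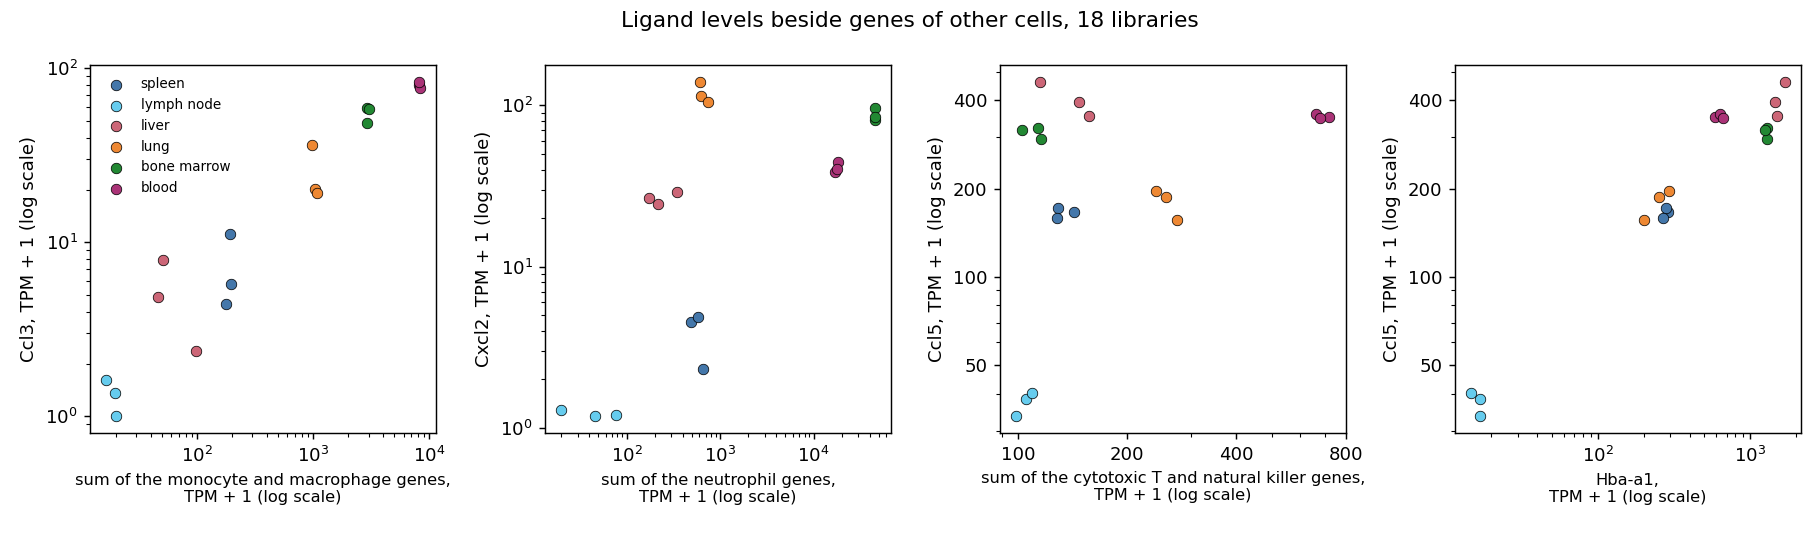
Ccl3, Cxcl2 and Ccl5 (y axes, TPM + 1, log scale) against the summed TPM + 1 of marker genes of other cells or against Hba-a1 (x axes, log scale), 1 point per library, coloured by group. Ccl3 rises with the monocyte and macrophage sum, most of which is Lyz2 in blood, bone marrow and lung. For Cxcl2 the lung libraries lie highest at a neutrophil sum of 606 to 743 TPM, with the bone marrow libraries at 44923 to 45383 TPM.

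Genes of other cells moved with several of these levels, and their part in the results was not tested. By group mean, Ccl3 followed the order of the summed 10 monocyte and macrophage markers in every group, though its spleen and liver libraries overlapped. Their sum was 8082 to 8326 TPM in blood, 2902 to 3022 TPM in bone marrow, 982 to 1071 TPM in lung and 177 to 195 TPM in spleen. In liver that sum was 44.7 to 96.0 TPM, and in lymph node, with 2 of 10 markers at a mean of 1 TPM or more, 15.5 to 19.0 TPM. Lyz2, a lysozyme of myeloid cells, made up most of the sum in blood, bone marrow and lung. It stood there at 7469 ± 107, 2809 ± 67 and 905 ± 32 TPM (SD, n = 3). The sum in these groups is therefore largely the level of 1 gene, and the order of the other markers was not taken apart from it. For Cxcl2 the 8 neutrophil markers gave another order. Bone marrow held 44923 to 45383 TPM of them and lung 606 to 743 TPM, while Cxcl2 was at 86.9 ± 8.2 and 119 ± 18 TPM. Spleen held 492 to 663 TPM of neutrophil markers, near the lung range, with Cxcl2 at 2.90 ± 1.4 TPM. The monocyte and macrophage sum did separate lung (982 to 1071 TPM) from spleen (177 to 195 TPM). That sum was highest in blood and lower in liver than in spleen, whereas Cxcl2 was highest in lung and higher in liver than in spleen. The 12 immediate early genes, which are induced within minutes of stimulation or handling, summed to 858 to 875 TPM in lymph node, 1145 to 1161 TPM in spleen, 3410 to 3569 TPM in blood, 4084 to 4474 TPM in lung, 6933 to 7005 TPM in bone marrow and 7884 to 8532 TPM in liver. Cxcl2 was likewise lowest in lymph node and spleen, but in liver, where this sum was highest, Cxcl2 was below lung, bone marrow and blood. The liver sum was led by Nr4a1 and Junb, at 3290 and 2490 TPM against 557 and 1559 TPM in bone marrow. Jun, Nr4a2, Nr4a3 and Atf3 also had higher means in liver than in bone marrow. Fos (369 TPM in liver, 2198 TPM in bone marrow), Fosb, Egr1, Egr2, Ier2 and Dusp1 had higher means in bone marrow.

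The 10 cytotoxic T and natural killer markers stood beside Ccl5 and Xcl1, which such cells also make. Their sum was 661 to 720 TPM in blood, 239 to 274 TPM in lung, 114 to 156 TPM in liver, 127 to 141 TPM in spleen, 102 to 115 TPM in bone marrow and 97.6 to 108 TPM in lymph node. Klrd1 was listed at 0 in liver, and no other of the 10 was at 0 in all libraries of a group. Single markers followed different orders. Nkg7, a granule protein of cytotoxic cells, averaged 89.1 TPM in blood, 66.9 TPM in liver, 59.1 TPM in bone marrow, 41.4 TPM in spleen, 39.01 TPM in lung and 24.7 TPM in lymph node. Gzma, a granule protease, averaged 329 TPM in blood, 42.2 TPM in lung, 24.4 TPM in spleen, 4.33 TPM in bone marrow, 4.04 TPM in liver and 1.62 TPM in lymph node. Ccl5 averaged 401 TPM in liver, 352 TPM in blood, 310.1 TPM in bone marrow, 179 TPM in lung, 164 TPM in spleen and 36.5 TPM in lymph node. Dendritic cell markers, for cells that make Cxcl16 and Ccl22, summed to 104 to 107 TPM in blood, 34.2 to 36.4 TPM in bone marrow, 28 to 51.4 TPM in lung, 10.4 to 13.6 TPM in spleen, 1.3 to 6.6 TPM in liver and 1.4 to 2.4 TPM in lymph node. The 6 basophil and mast cell markers summed to 167 to 181 TPM in bone marrow, 29.1 to 40.6 TPM in blood and at most 12.7 TPM elsewhere. The 6 B cell markers summed to 586 to 607 TPM in blood, 527 to 571 TPM in spleen, 495 to 521 TPM in bone marrow and 47.6 to 158 TPM in the other organs. Platelet markers summed to 848 to 893 TPM in blood and at most 23.5 TPM elsewhere. The 6 epithelium and hepatocyte markers summed to 221 to 297 TPM in lung, where Cxcl2 was highest, and to at most 19.4 TPM elsewhere. The 6 endothelium and stroma markers summed to between 74.0 and 140 TPM in all groups. Only 1 of them averaged at least 1 TPM in spleen, lymph node and blood, 2 in lung and bone marrow and 3 in liver.

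Among genes with a group mean of at least 10 TPM (9391 genes), those most like each ligand were found by Pearson correlation of log2(TPM + 1) over the 18 libraries. These libraries fall into 6 groups of 3 that share an organ, so the values mainly compare group levels and carry no test. For Ccl3 they were Hdc (r = 0.970), Cd300lf (r = 0.961) and Fcer1g (r = 0.960), of which Hdc makes histamine and Fcer1g is a signalling chain of Fc receptors in myeloid cells. For Ccl4, Mirt1 and S100a6 were among them (r = 0.945 and 0.941). For Ccl5 they were the globin genes Hba-a1, Hba-a2 and Hbb-bs (r = 0.978, 0.971 and 0.960), whose near-identical copies share reads. Hba-a1 stood at 15.2 ± 1.3 TPM in lymph node, 248 ± 47 TPM in lung, 278 ± 10 TPM in spleen, 628 ± 35 TPM in blood, 1281 ± 21 TPM in bone marrow and 1542 ± 128 TPM in liver (SD, n = 3). For Cxcl2 they were Trib1, Ier2 and Serinc3 (r = 0.969, 0.966 and 0.957), of which Ier2 is an immediate early gene. For Cxcl10 they were Hsp90aa1, a stress-inducible chaperone, Snhg15 and Hmgn5 (r = 0.956, 0.955 and 0.950). Hsp90aa1 averaged 1427 TPM in liver, 962 TPM in lung and 356 TPM in blood.

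The lower ligands had looser matches. Ccl1 was most like Prkcz, an atypical protein kinase C, Tspoap1 and Ccsap (r = 0.897, 0.891 and 0.879). Xcl1 was most like Kctd10, Cdkn1b, a cell cycle inhibitor, and Adipor2 (r = 0.881, 0.871 and 0.871). Cxcl16 was most like Slc39a4, a zinc transporter, Atg12 and Arl5c (r = 0.916, 0.867 and 0.854). Ccl20 was most like Huwe1, a ubiquitin ligase, Med14 and Pard6g (r = 0.917, 0.894 and 0.860). Among the ligands themselves the closest pairs were Ccl3 with Ccl4 (r = 0.873) and Ccl4 with Ccl5 (r = 0.872), and the most opposed were Ccl5 and Ccl20 (r = -0.790). Ccl20 averaged 0.8 TPM or less outside lymph node, where Ccl5 was lowest, so the last value mainly sets lymph node against the rest.

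The wider family was read from a list of 29 other chemokine ligands. Of these, 17 passed the filter and 16 differed among the groups, where 68% of all genes did. The exception was Ccl17, which is named after its value was seen (limma adjusted p = 0.605). Several of the 17, Cxcl13 among them, reached a mean of 1 TPM in blood alone and so entered through the group where they are high, and the counts are a description only. The most abundant was Ccl6 at 870 ± 25 TPM in blood (SD, n = 3), which is a macrophage and neutrophil chemokine. Ppbp and Pf4, both stored in platelets, averaged 817 and 680 TPM in blood. Ccl9 (149 TPM), Cxcl13, which attracts B cells (26.9 TPM), and Ccl2, which attracts monocytes (14.01 TPM), were also highest in blood. Cxcl1, which shares Cxcr2 with Cxcl2, was highest in lung at 34.1, 28.8 and 44.5 TPM and exceeded spleen there by 5.09 ± 0.50 (limma adjusted p = 6.63e-07). Ccl27a had its highest mean in lung, at 15.8 TPM, with libraries that overlapped those of spleen, lymph node, bone marrow and blood.

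**Figure D5:**
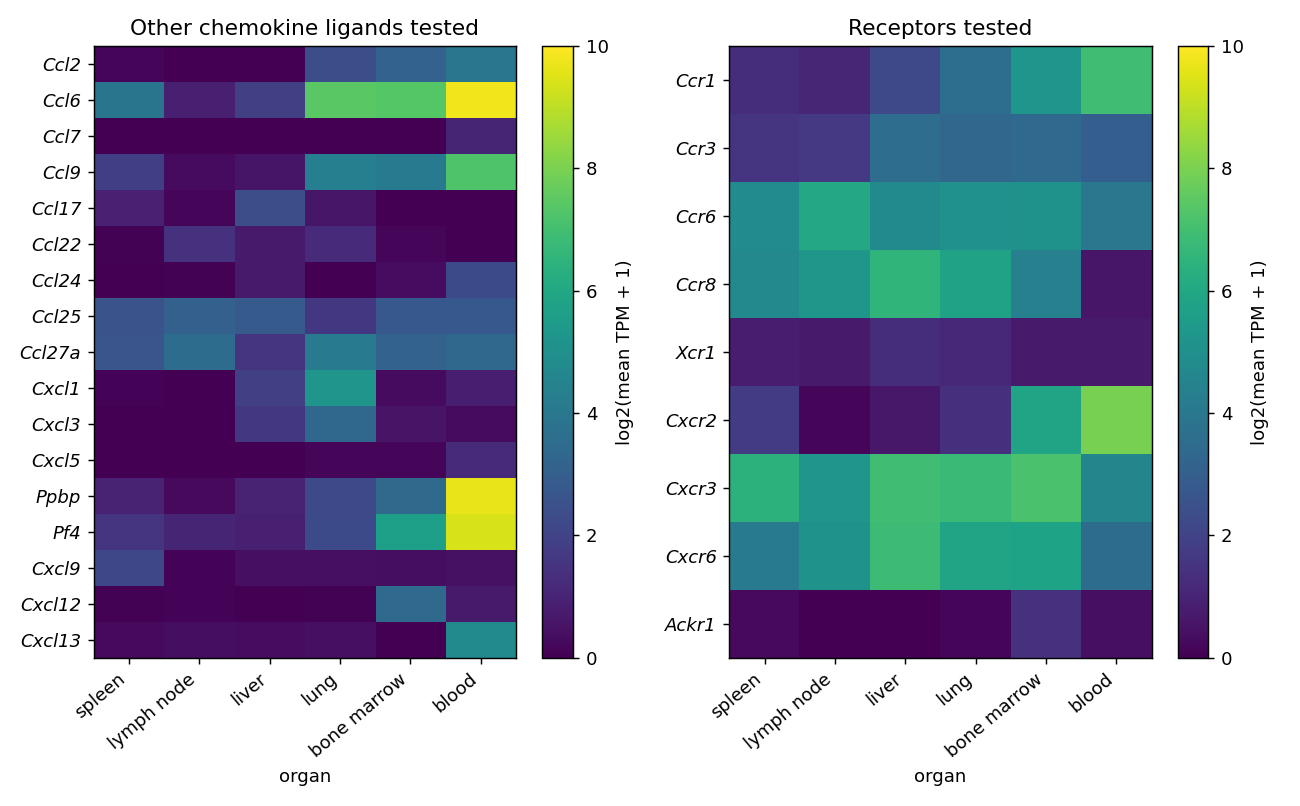
Group means as log2(mean TPM + 1) (colour) for the 17 other chemokine ligands tested and the 9 receptors tested (y axis) in the 6 groups (x axis). Ccl6, Ppbp, Pf4, Ccr1 and Cxcr2 are brightest in blood, while Ccr8, Cxcr3 and Cxcr6 are dimmer in blood than in each of the 5 organs.

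Receptors of the 9 ligands were also measured in the same libraries. Of 10 listed, 9 passed the filter and 8 differed among groups, where 68% of all genes did, leaving out Xcr1, which is named after its value was seen (limma adjusted p = 0.298). Ccr8, the receptor of Ccl1 and a marker of effector Treg cells, was 85.4, 79.8 and 109 TPM in liver and 0.33, 0.34 and 0.85 TPM in blood, so that ligand and receptor were both highest in liver and lowest in blood. Cxcr6, the receptor of Cxcl16, was 110, 129 and 107 TPM in liver and 10.3, 10.3 and 10.96 TPM in blood. Cxcr3, the receptor of Cxcl10, averaged 138 ± 6.7 TPM in bone marrow, 120 ± 5.2 TPM in liver and 22.9 ± 2.5 TPM in blood. Each of these 3 was lower in blood than in all 5 organs without T cell scaling, which was not applied to the receptors. Their smallest differences were -0.62 for Cxcr3 against lymph node and -0.63 for Cxcr6 against spleen. That scaling moved the median of all genes to 0.77 and 0.71 in these comparisons, so the direction of both may depend on it. Blood was lower than liver by -5.94 for Ccr8, by -3.33 for Cxcr6 and by -2.34 for Cxcr3 (limma adjusted p = 1.16e-13, 1.3e-12 and 6.97e-12). Ccr6, the receptor of Ccl20, was highest in lymph node at 61.3, 72.6 and 61.5 TPM, as Ccl20 was, and exceeded spleen by 1.22 ± 0.29 (limma adjusted p = 0.0109). Ccr1, which binds Ccl3 and Ccl5, averaged 121 ± 2.7 TPM in blood, 37.1 ± 1.9 TPM in bone marrow, 11.3 ± 4.6 TPM in lung and 1.09 ± 0.33 TPM in lymph node, and Ccl3 was highest in the same 3 groups in the same order. Cxcr2, the receptor of Cxcl2 on neutrophils, averaged 249 ± 8.7 TPM in blood, 56.2 ± 2.0 TPM in bone marrow and 1.52 ± 0.99 TPM in lung, so its highest group was not that of Cxcl2. Ccr3, a further receptor of Ccl5, reached a mean of 10.9 TPM in liver, whose libraries overlapped those of lung and bone marrow.

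Genes that process ligands or destabilize their messages were a list of 6, all tested, of which 5 differed among groups, where 68% of all genes did. Adam17, named after its value was seen, did not (limma adjusted p = 0.0589). Zfp36, Zfp36l1 and Zfp36l2 bind AU-rich elements and speed decay. Zfp36 and Zfp36l2 were highest in bone marrow, at 771 and 710 TPM, and Zfp36l1 in liver at 436 TPM. Adam10, the protease that sheds Cxcl16, averaged 74.6 TPM in lymph node, 71.5 TPM in bone marrow and 70.6 TPM in blood, and its libraries overlapped among these 3 groups. Dpp4, which trims the ends of chemokines such as Cxcl10, was highest in lymph node at 35.4 TPM.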

How the data were processed

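RNA was sequenced from CD4+Foxp3+ cells as 18 libraries, 3 for each of 6 organs, grouped by the labels. The authors deposited TPM values for 55487 gene IDs per library. STAR, RSEM and mm10 are named in the submitters' processing notes. Strand use, versions and annotation are not given in the sources used here. TPM keeps no read depth, so no counting interval is given.

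From these values log2(TPM + 1) was computed and genes reaching a mean of 1 TPM in any group were kept (16694). All 18 libraries entered 1 limma 3.58.1 model (R 4.3.3) with a mean per group and eBayes trend and robust settings, tested on simulated data. Benjamini-Hochberg adjustment was made over all genes tested, with a threshold of 0.05, in an F test over 5 contrasts, in 5 blood comparisons and in 10 organ pairs. Fold changes are on the log2(TPM + 1) scale and understate low genes. The 9 ligands, the gene lists and the tests were chosen with earlier results of these data known. Genes named beyond the 9 were the 3 most like each ligand (group mean of at least 10 TPM, predicted genes left out) and, from the lists of other ligands, receptors and processing genes, those past the F test with a group mean of 10 TPM. Alternatives covered the pseudocount, the filter, scaling, weights, the replicate block and leaving out each library. Gene models came from GENCODE M21, which named 55141 IDs, and promoters from RefSeq GRCm38.p6. Some items withheld from this text are not reported here.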

Additional observations from a re-analysis of the deposited data

How the results depend on the processing

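All 9 F tests kept their call in the 10 other settings and with each library left out. Fold changes of single ligands were counted for the 5 blood comparisons and for the organ-pair values given above, 74 in all. Other organ-pair fold changes are not in these counts. Those counted kept their direction and side of the threshold in 767 of 810 refits under other settings and in 416 of 444 with 1 library left out. Scaling to T cell genes reversed Cxcl10 in blood against lymph node (0.77), Ccl5 and Xcl1 in blood against liver (0.78 and 0.34), Xcl1 in blood against lung (0.48) and Cxcl10 in bone marrow against spleen (0.15). Differences near 0 turned without 1 library: Cxcl10 in bone marrow against spleen (from -0.39 to 0.062, the latter without spleen replicate 1), Ccl20 in blood against spleen (-0.0588 to 0.033, without spleen replicate 2) and against lung (-0.70 to 0.033, without lung replicate 3), and Xcl1 in blood against lung (-0.35 to 0.10, without lung replicate 1, and 0.0176 without blood replicate 3). T cell scaling left 1 ligand lower in blood than in spleen and 4 higher than in bone marrow. The latter count was 2 with library weights and 3 with only the groups compared in the fit, which also left 4 ligands called in liver against spleen. The cause was not tested. No pairing by replicate number was seen. Deviations of same-numbered libraries correlated at -0.034 to 0.030 (median 0.007, 45 pairs). Those of different-numbered libraries correlated at -0.035 to 0.04 (median -0.002, 90 pairs). If the libraries of a group are technical repeats, these values cannot show whether the organs share animals. With the replicate block 9 ligands differed among the groups, and none of the 74 fold changes changed its call. Lung against liver had 6 ligands called in place of 5, through a change outside those 74. TPM tables hold no depth, so values near 0, as for Ccl20 and Ccl1, cannot be set against a detection limit.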
